A study of Mus musculus with 18 samples.

Results

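Resident Kupffer cell identity genes are the genes by which the settled macrophages of the mouse liver are recognised, and 9 of them were followed here: Clec4f, Vsig4, Timd4, Folr2, Cd163, Marco, Cd5l, Id3 and Adgre1. The members were chosen by symbol and not by a threshold on their values, but with earlier results of these data known. All 9 were found among the 35441 genes of the deposited count table and among the 14533 genes that passed the filter of more than 100 reads over all mice. The study asked whether a hepatocyte-directed gene transfer corrects the liver of mice without lysosomal acid lipase (LAL), and polyA RNA was sequenced from the livers of 18 mice in 6 groups of 3. WT mice were untreated. The knockout mice, called Lipa-/- here and KO in the plots, are labelled KO and untreated, and the study's methods describe them as males on a C57/BL6N background whose exon 4 of Lipa was deleted with a Cre driven by the CMV promoter, so that every cell type lacks the enzyme. The treated animals (rAAV8-treated Lipa-/-, or KOT in the plots) carry the same deletion and received, as young adults and through the tail vein, a vector with the human LIPA cDNA and an HA tag behind the hAAT promoter, a promoter of hepatocytes. Livers are labelled 3 or 8 months, which correspond to 12- and 34-weeks post-injection. Most untreated Lipa-/- mice of the longer arm reached an ethical endpoint before 34-weeks according to the methods, so that this time is a label for them and not a measured age.

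Kupffer cells line the liver sinusoids, where they take up particles, dying cells, old red blood cells and lipoproteins from the blood. They descend largely from embryonic macrophages and renew themselves locally, and when some are lost, blood monocytes can enter the empty places and acquire the same genes, with Timd4 among the last to appear. Signals from sinusoidal endothelial and stellate cells, among them Notch ligands and members of the TGF-beta and BMP family, keep the programme active. LAL cleaves cholesteryl esters and triglycerides in the lysosome, and macrophages without it fill with lipid.

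Levels are given as CPM, the reads of a gene relative to all reads of its library, after TMM scaling, which compares mice for 1 gene, and as TPM, which also corrects for transcript length, where genes are compared with each other. A gene was called higher or lower when its log2 fold change in edgeR's quasi-likelihood fit exceeded 1 in size with a Benjamini-Hochberg adjusted p under 0.05 over all 14533 genes. The SE given after ± was derived from this test, as the size of the log2 fold change divided by the square root of its F statistic. For groups of 3 the smallest exact permutation p is 0.1, so no single gene was tested that way. In whole liver, fewer Kupffer cells and less RNA of a gene per cell cannot be told apart.

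The libraries held between 17527848 and 25833134 reads assigned to genes. Lipa lay between 202 and 323 CPM in WT mice and between 16.7 and 37.0 CPM in all mice with the deletion, and the vector transcript hLIPA between 523 and 2746 CPM in treated mice. It was at 0 in all Lipa-/- mice and in 4 of 6 WT mice, with 1 read in WT mouse 1 and 23 reads in WT mouse 2 of 34-weeks. The labels' study codes differ between the time points, so that time and code cannot be told apart, and within 12-weeks only Lipa-/- mouse 5 carried a code of its own. With total counts in place of TMM scaling, all log2 fold changes against WT shifted by 0.47 and 0.64 in Lipa-/- mice at 12- and 34-weeks and by -0.41 in treated mice at 12-weeks; changes below are relative to TMM scaling.

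The 9 genes lie on 8 chromosomes of GRCm39, the build of the study, and the promoters of 3 that changed in opposite directions are shown. Clec4f and Cd163 are both on chromosome 6, at 83621524 to 83633169 on the minus strand and at 124281606 to 124307560 on the plus strand. Timd4 spans 46701620 to 46735177 of chromosome 11 on the plus strand, and Marco spans 120402267 to 120432753 of chromosome 1 on the minus strand. The windows shown run from 250 bases before the start of the canonical transcript to 30 bases into its first exon, for the members with the largest falls, Timd4 and Cd163, and for Marco, which was higher in Lipa-/- mice at 12-weeks. They are printed in the direction of the gene, at chr11:46701370-46701649, chr6:124281356-124281635 and chr1:120432724-120433003, and capitals mark matches on either strand to 6 short motifs: the core GAGGAA of PU.1, the macrophage lineage factor, the recognition element TGCTGA of MAF factors, the element AGGTCA of nuclear receptors such as LXR, the SMAD elements GTCTAG and GGCGCC, and the E-box CACGTG of TFEB.
Timd4: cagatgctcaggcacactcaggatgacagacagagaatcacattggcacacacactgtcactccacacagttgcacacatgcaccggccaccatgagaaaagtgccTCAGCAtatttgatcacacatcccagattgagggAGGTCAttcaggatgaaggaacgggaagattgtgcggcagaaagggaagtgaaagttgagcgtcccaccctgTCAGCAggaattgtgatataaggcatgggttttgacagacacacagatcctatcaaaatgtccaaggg
Cd163: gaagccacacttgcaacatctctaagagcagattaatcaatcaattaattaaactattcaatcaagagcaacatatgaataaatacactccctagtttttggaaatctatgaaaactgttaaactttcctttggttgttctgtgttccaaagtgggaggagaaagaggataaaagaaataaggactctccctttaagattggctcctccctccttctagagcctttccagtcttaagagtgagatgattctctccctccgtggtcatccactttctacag
Marco: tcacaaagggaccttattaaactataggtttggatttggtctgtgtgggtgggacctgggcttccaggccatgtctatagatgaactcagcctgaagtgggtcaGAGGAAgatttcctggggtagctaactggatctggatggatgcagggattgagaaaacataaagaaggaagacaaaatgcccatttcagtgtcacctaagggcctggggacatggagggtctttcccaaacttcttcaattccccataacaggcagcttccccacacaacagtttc

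The PU.1 core occurred at 1 place in the Marco window, and at none in those of Timd4 and Cd163. Over the 8 members whose windows were searched it was found in 3, against 25.5% of 21770 protein-coding promoters of the same length. The MAF element occurred at 2 places in the Timd4 window and in 5 of the 8 members, against 16.7% of all promoters. The nuclear receptor element was found in 2 members, Timd4 and Id3, against 14.2%. The SMAD elements were each found in 1 member, GTCTAG in Folr2 and GGCGCC in Id3, against 8.45% and 11% of promoters, and the E-box in 0 members, against 7.34%. The Cd163 window held none of these letters, which describes this window only.

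In livers of Lipa-/- mice the identity genes split. At 12-weeks 3 of the 9 were called higher than in WT mice (Marco, Adgre1 and Cd5l) and 2 lower (Cd163 and Timd4), where 20.2% of all tested genes were called higher and 9.06% lower. At 34-weeks 1 was called higher (Adgre1) and 4 lower (Cd163, Timd4, Clec4f and Folr2), against 20.5% and 15.7% of all genes. The median log2 fold change of the 9 was -0.31 and -1.22, beside 0.02 and -0.03 over all genes. In 4 members at 12-weeks and 6 at 34-weeks no Lipa-/- value overlapped the WT values in CPM, while 52.7% and 60.3% of all genes were separated in this way. Without the pair of Lipa-/- mice described further down, 5 members were called at each time point, as with them.

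**Figure D1:**
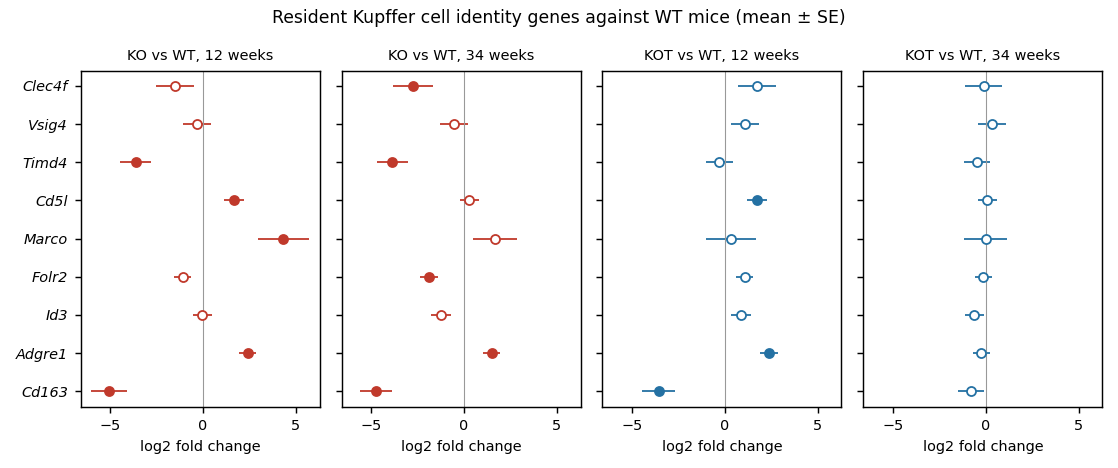
Log2 fold change (± SE) of the 9 members against WT mice of the same time point, for Lipa-/- (KO) and rAAV8-treated Lipa-/- (KOT) mice, with filled circles for called genes and open circles for genes that were not called. In KO mice Cd163 and Timd4 sit far to the left at both time points and Adgre1 to the right, and in KOT mice of 34 weeks all 9 circles are open.

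Timd4 encodes the phosphatidylserine receptor with which long-settled Kupffer cells bind dying cells. At 12-weeks it lay at 2.63, 5.17 and 2.57 CPM in WT mice 1, 2 and 3 and at 0.388, 0 and 0.426 CPM in Lipa-/- mice 8, 9 and 5. At 34-weeks it lay at 5.84, 8.55 and 3.85 CPM in WT mice 1, 2 and 3 and at 0.883, 0.348 and 0 CPM in Lipa-/- mice 4, 5 and 6. Every Lipa-/- liver was below every WT liver at both time points, with 12 reads at most at 12-weeks and 28 reads at most at 34-weeks. The log2 fold change was -3.62 ± 0.86 at 12-weeks, a 12.3-fold lower level (edgeR adjusted p = 0.00299), and -3.84 ± 0.82 at 34-weeks, 14.3-fold lower (edgeR adjusted p = 0.00105). Without Lipa-/- mouse 4 the latter became -5.10.

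Cd163 encodes the receptor that clears complexes of haemoglobin and haptoglobin. WT mice held 4.98, 6.08 and 4.55 CPM at 12-weeks and 6.43, 12.5 and 8.02 CPM at 34-weeks. Lipa-/- mice 8, 9 and 5 of 12-weeks held 0.233, 0.0404 and 0.177 CPM, and Lipa-/- mice 4, 5 and 6 of 34-weeks 0.662, 0.271 and 0.0368 CPM. The groups did not overlap, and 5 of the 6 Lipa-/- livers had at most 7 reads of this gene. The log2 fold change was -5.05 ± 0.94 at 12-weeks (33.1-fold lower, edgeR adjusted p = 0.000463) and -4.74 ± 0.87 at 34-weeks (26.7-fold lower, edgeR adjusted p = 0.00028). Leaving out Lipa-/- mouse 4 of 34-weeks gave -5.84.

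Clec4f encodes a C-type lectin that in mice is made almost only by Kupffer cells. In WT mice it lay at 78.5, 114 and 45.4 CPM at 12-weeks and at 160, 113 and 69.5 CPM at 34-weeks. In Lipa-/- mice 8, 9 and 5 of 12-weeks it lay at 39.8, 1.33 and 42.4 CPM, and in mice 4, 5 and 6 of 34-weeks at 33.8, 17.4 and 0.221 CPM. In CPM all Lipa-/- livers were below all WT livers, but they varied widely among themselves, from 1.33 to 42.4 CPM at 12-weeks and from 0.221 to 33.8 CPM at 34-weeks. In TPM, which is not corrected with TMM factors, the groups overlapped at both time points. Lipa-/- mice reached 51.7 and 62.4 TPM, while the lowest WT mice had 34.7 and 58.8 TPM. At 12-weeks the Clec4f log2 fold change of -1.51 ± 1.02 was not called (edgeR adjusted p = 0.263). At 34-weeks it was -2.73 ± 1.07, 6.65-fold lower, and called by a narrow margin (edgeR adjusted p = 0.0445). That call was lost without WT mouse 1 (-2.41, adjusted p = 0.101), WT mouse 2 (-2.74, 0.0664), Lipa-/- mouse 5 (-2.74, 0.105) or Lipa-/- mouse 6 (-2.16, 0.0655), and without Lipa-/- mouse 4 the value was -3.70. It was lost in 11 of 16 alternatives in all, the others being total counts (-1.96, adjusted p = 0.125), upper quartile scaling (-2.53, 0.0632), length offsets (-2.44, 0.0655), DESeq2 (-2.40, 0.0628), a fit of these 2 groups alone (-2.67, 0.0841) and limma on both TPM scales (-3.05, 0.0688 and -2.64, 0.0603).

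Folr2 encodes folate receptor beta. It lay at 9.38, 14.0 and 5.86 CPM in WT mice and at 6.25, 4.28 and 3.26 CPM in Lipa-/- mice 8, 9 and 5 of 12-weeks, where the groups overlapped and the log2 fold change of -1.08 ± 0.47 was not called (edgeR adjusted p = 0.0768). At 34-weeks it lay at 15.3, 13.4 and 8.06 CPM in WT mice and at 4.23, 3.36 and 2.28 CPM in Lipa-/- mice 4, 5 and 6. These groups were apart, and Folr2 fell by 1.89 ± 0.48 on the log2 scale, 3.71-fold (edgeR adjusted p = 0.00365). Without WT mouse 3 of 12-weeks (-1.34, adjusted p = 0.0464) and in DESeq2 (-1.10, 0.0493) the earlier difference passed as well.

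Vsig4 encodes the complement receptor CRIg, which captures opsonised particles from the blood. Its WT values were 12.5, 18.8 and 10.6 CPM at 12-weeks and 20.1, 25.3 and 13.6 CPM at 34-weeks. Lipa-/- mice 8 and 5 of 12-weeks had 17.7 and 14.2 CPM and mice 4 and 5 of 34-weeks 25.0 and 15.3 CPM, within the WT range, whereas Lipa-/- mouse 9 of 12-weeks had 1.9 CPM and mouse 6 of 34-weeks 1.14 CPM. The log2 fold changes of -0.31 ± 0.76 and -0.51 ± 0.75 were not called (edgeR adjusted p = 0.776 and 0.61), and they had the opposite sign with total counts (0.16 and 0.20).

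Marco, a scavenger receptor of class A that binds bacteria and modified lipoproteins, went the other way. It lay at 1.98, 2.63 and 0.995 CPM in WT mice of 12-weeks, and at 64.4, 1.29 and 46.6 CPM in Lipa-/- mice 8, 9 and 5. At 34-weeks it lay at 11.9, 41.0 and 6.70 CPM in WT mice, and at 122, 62.5 and 2.65 CPM in Lipa-/- mice 4, 5 and 6. At each time point 2 Lipa-/- livers were above all WT livers and the remaining one was among or below them. At 12-weeks Marco was 19.9-fold higher (log2 fold change 4.31 ± 1.37, edgeR adjusted p = 0.0191), and this call was lost without WT mouse 1 (4.36, adjusted p = 0.0601), WT mouse 3 (4.01, 0.0691) or Lipa-/- mouse 8 (3.67, 0.0559), and in limma on log2 (TPM + 1) (3.02, 0.0607). At 34-weeks the log2 fold change of 1.65 ± 1.19 was not called (edgeR adjusted p = 0.27). WT mice themselves differed between the time points by 3.40 ± 1.33 without passing the test (edgeR adjusted p = 0.482).

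Cd5l encodes a secreted scavenger receptor protein known as apoptosis inhibitor of macrophages, and is a target of LXR. At 12-weeks it lay at 44.8, 64.7 and 26.7 CPM in WT mice and at 252, 61.5 and 127 CPM in Lipa-/- mice 8, 9 and 5. Only mouse 9 fell in the WT range, and Cd5l was 3.24-fold higher (log2 fold change 1.70 ± 0.54, edgeR adjusted p = 0.0188). The call was lost without WT mouse 1 (1.69, adjusted p = 0.0562), WT mouse 3 (1.43, 0.0803) or Lipa-/- mouse 8 (1.06, 0.14). At 34-weeks, values of 101, 98.6 and 53.1 CPM in WT mice and 148, 114 and 46.5 CPM in Lipa-/- mice 4, 5 and 6 overlapped, with a log2 fold change of 0.29 ± 0.52 (edgeR adjusted p = 0.676).

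Adgre1 encodes F4/80, the antigen by which mouse macrophages of many tissues are stained, and it is also made by macrophages that derive from monocytes. It lay at 7.61, 10.4 and 4.97 CPM in WT mice and at 53.5, 48.4 and 20.3 CPM in Lipa-/- mice 8, 9 and 5 of 12-weeks. At 34-weeks it lay at 16.9, 18.7 and 8.84 CPM in WT mice and at 49.7, 46.1 and 30 CPM in Lipa-/- mice 4, 5 and 6. All Lipa-/- livers were above all WT livers, including the mice with almost no Clec4f. The gene was 5.30-fold higher at 12-weeks (log2 fold change 2.41 ± 0.47, edgeR adjusted p = 0.000667) and 2.83-fold higher at 34-weeks (1.5 ± 0.45, edgeR adjusted p = 0.0116). The latter call was lost without WT mouse 3 of 34-weeks (1.24, adjusted p = 0.0559).

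Id3 encodes a helix-loop-helix regulator that Kupffer cells need and that other liver cells also make. It lay at 181, 134 and 43.5 CPM in WT mice and at 99.0, 103 and 147 CPM in Lipa-/- mice 8, 9 and 5 of 12-weeks, with a log2 fold change of -0.04 ± 0.52 (edgeR adjusted p = 0.961) whose sign turned with total counts (0.46). At 34-weeks it lay at 234, 79.4 and 132 CPM in WT mice and at 52.0, 70.4 and 68.9 CPM in Lipa-/- mice 4, 5 and 6. The later groups were apart in CPM but not in TPM (102 to 106 TPM in Lipa-/- and 95.3 to 185 TPM in WT mice). The log2 fold change of -1.22 ± 0.52 was not called (edgeR adjusted p = 0.0655). It passed without WT mouse 2 (-1.52, adjusted p = 0.0336), in DESeq2 (-1.20, 0.0421), without a filter (-1.22, 0.0478) and in a fit of these 2 groups alone (-1.17, 0.0353).

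**Figure D2:**
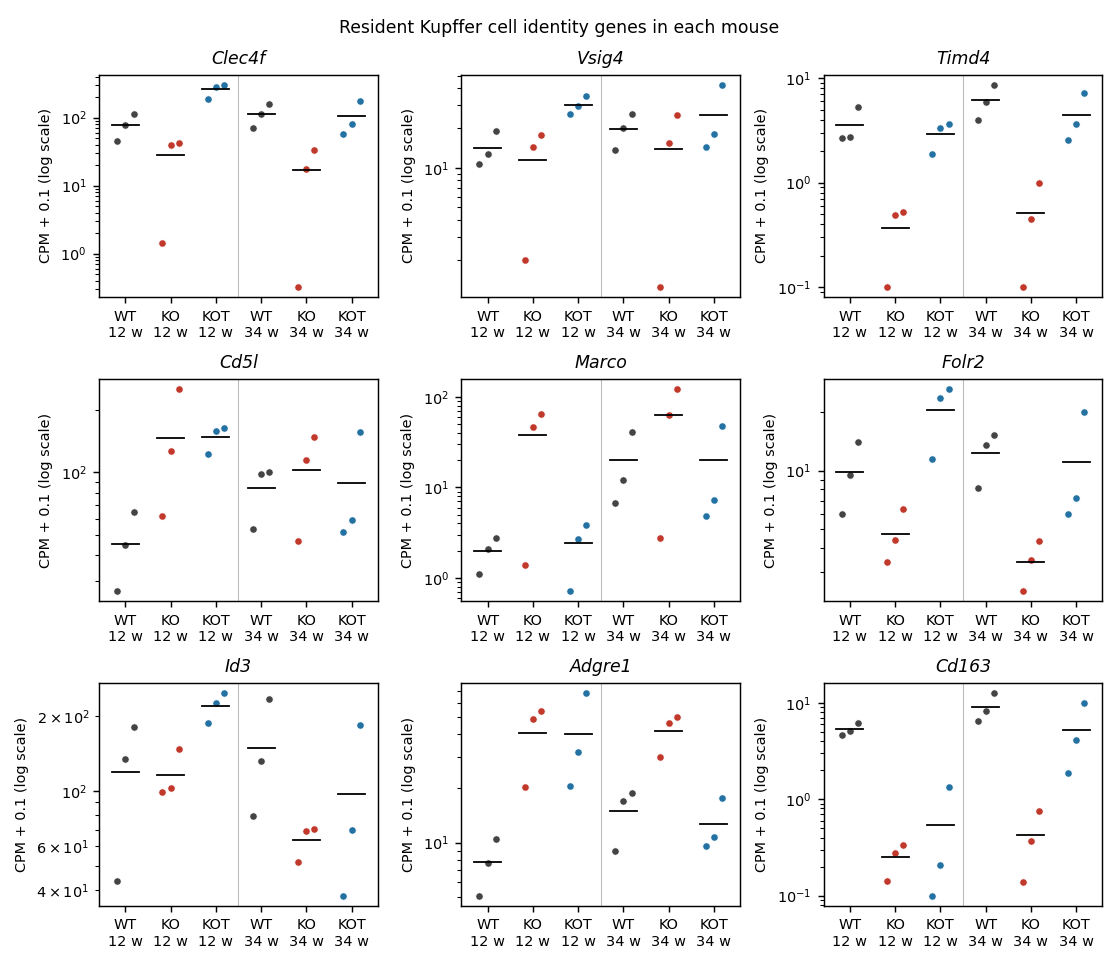
CPM + 0.1 on a log scale for each of the 9 members, with 1 point per mouse, 3 mice per group, and a line at the group mean, in the WT, KO and KOT groups of 12 and 34 weeks (w). In KO groups 1 point lies far below the others for Clec4f, Vsig4 and Marco, and for Timd4 and Cd163 all KO points lie below all WT points.

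The low points belonged to the same animals. Lipa-/- mouse 9 of 12-weeks was the lowest of its group in 6 of the 9 members and Lipa-/- mouse 6 of 34-weeks in 8 of the 9. Relative to the mean of the other Lipa-/- mice of its time point, mouse 9 was 30.8-fold lower in Clec4f, 42.9-fold in Marco, 8.39-fold in Vsig4 and 3.08-fold in Cd5l. Mouse 6 was 116-fold lower in Clec4f, 34.9-fold in Marco, 17.7-fold in Vsig4 and 2.82-fold in Cd5l. Timd4 was at 0 reads in both. General macrophage genes were lower in these animals by up to 2.40-fold in mouse 9 and 3.41-fold in mouse 6 (both C1qa, a complement subunit), and mouse 9 was lowest in 7 and mouse 6 in 10 of the 10 genes listed as such. The falls of C1qc (2.84-fold) and Aif1 (2.74-fold) in mouse 6 were close to that of Cd5l and larger than those of Folr2 (1.66-fold) and Adgre1 (1.60-fold). Cd68, a lysosomal macrophage protein, was at 327 CPM in mouse 9 and 219 CPM in mouse 6, against 2.62 to 8.51 CPM in WT mice.

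The remaining Lipa-/- mice kept part of the set. Mice 8 and 5 of 12-weeks and mice 4 and 5 of 34-weeks had 17.4 to 42.4 CPM of Clec4f, and Vsig4 and Cd5l within or above the WT range of their time point. Without mice 9 and 6 the log2 fold change of Clec4f was -0.95 at 12-weeks (adjusted p = 0.166) and -2.16 at 34-weeks (adjusted p = 0.00401), and those of Timd4 were -3.07 and -3.27 (edgeR adjusted p = 0.00153 and 0.000439). Those of Cd163 were -4.63 and -4.23 (edgeR adjusted p = 0.00231 and 0.00153), and Marco reached 4.88 and 2.21 (edgeR adjusted p = 0.00153 and 0.0505). Low Timd4 and Cd163 were thus also measured in the remaining mice, whose Clec4f was above that of mice 9 and 6 but below all WT mice in CPM. Mice 9 and 6 were left out because of their low values, so the p-values without them are a description.

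**Figure D3:**
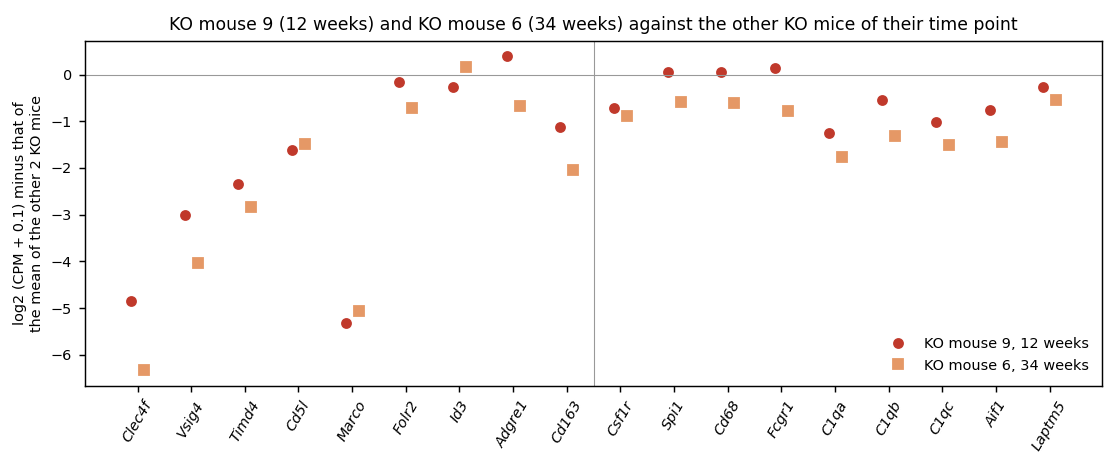
Difference in log2 (CPM + 0.1) between Lipa-/- (KO) mouse 9 of 12 weeks (circles) or mouse 6 of 34 weeks (squares) and the mean of the other 2 KO mice of the same time point, for the 9 members (left of the line) and 9 general macrophage genes (right). Clec4f, Vsig4 and Marco lie at the bottom in both mice, and most general macrophage genes lie below 0, furthest for C1qa.

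Markers of other myeloid cells moved with these groups, and their part in the results was not tested. Of 10 genes of recruited monocytes, 10 were called higher in untreated Lipa-/- mice at 12-weeks and 9 at 34-weeks. Their summed level ran from 5.97 to 11.0 CPM in WT and from 165 to 547 CPM in Lipa-/- mice of 12-weeks, and from 12.7 to 18 CPM and 220 to 316 CPM at 34-weeks, with none at 0 in any Lipa-/- mouse. The highest sum was that of mouse 9, which had 64.3 CPM of Ly6c2 and 119 CPM of Chil3, and whose 5 neutrophil genes summed to 1144 CPM, against 94.6 and 133 CPM in the other Lipa-/- mice of 12-weeks. Mouse 6 did not share this, with 258 CPM over the monocyte genes and 113 CPM over the neutrophil genes. All 7 genes of lipid-associated macrophages were called higher at both time points, among them Gpnmb (13.11), Trem2 (8.65) and Cd63 (7.07 on the log2 scale at 12-weeks), and their sum reached 4013 to 7794 CPM at 12-weeks and 5526 to 6461 CPM at 34-weeks, against 101 to 196 CPM in WT mice. Within these sums, a log2 fold change of 13.11 means that Gpnmb was close to 0 in WT mice, so its size rests on few WT reads.

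Relative to genes that macrophages share, which rose, the identity genes were lower in Lipa-/- livers than the levels above show. Csf1r, Spi1, Cd68 and 7 further genes of macrophages in general had a geometric mean of 9.63 ± 2.83 CPM (SD, n = 3) in WT and 108 ± 21.5 CPM in Lipa-/- mice of 12-weeks, and of 15.5 ± 4.10 and 102 ± 43.9 CPM at 34-weeks. Of these 10 genes 9 were called higher at each time point, such as Cd68 (6.25 and 5.37), Spi1 (4.73 and 3.39) and Csf1r (2.49 and 1.54 on the log2 scale). Per mouse, the log2 ratio of a member to this mean was lower in all Lipa-/- mice than in all WT mice for 8 of the 9 members at both time points, and only Marco overlapped. These 8 include Adgre1 and Cd5l, which were called higher in CPM at 12-weeks, and Id3, whose log2 fold change there was -0.04. The rise of the reference therefore enters this count. The difference was -8.00 and -7.36 for Cd163, -7.03 and -6.72 for Timd4, -5.98 and -6.90 for Clec4f, -4.54 and -4.52 for Folr2, and -4.29 and -3.96 for Vsig4 at 12- and 34-weeks. It was smaller for Id3 (-3.35 and -3.76), Cd5l (-1.96 and -2.47) and Adgre1 (-1.18 and -1.13). Against Csf1r alone, 6 members were still below WT in all mice, but Adgre1 (-0.15 and -0.10) and, at 12-weeks, Cd5l (-0.93) overlapped and Marco was 0.65 at 12-weeks. With Cd68 left out of the reference, Adgre1 overlapped at 12-weeks as well (-0.86). In treated mice of 34-weeks the ratio was below WT in all mice for Cd163 (-1.38) and Timd4 (-0.85) and overlapped for the other 7 members, among them Id3 (-1.10); against Csf1r alone Timd4 overlapped as well (-0.71). These ratios are a description, since the denominator changed between the groups, and they were not tested. The median log2 fold change of all tested genes in Lipa-/- mice was 0.02 and -0.03, so an unchanged gene would also fall in this ratio. The share of all genes below WT in this ratio was not determined.

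**Figure D4:**
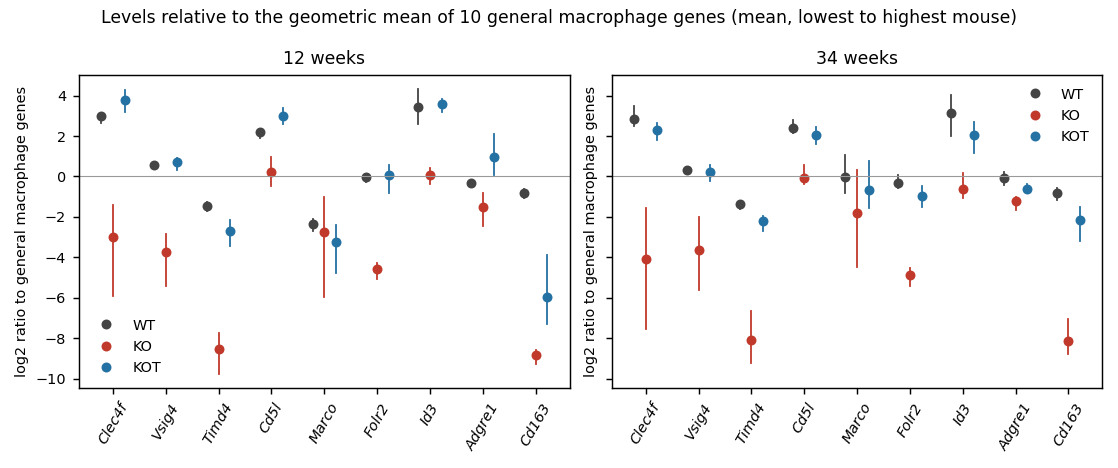
Log2 ratio of each member's CPM to the geometric mean CPM of 10 general macrophage genes at 12 weeks (left) and 34 weeks (right), with the group mean as a point and a line from the lowest to the highest of 3 mice. The KO points lie below the WT points for every member, with overlapping lines for Marco, and at 34 weeks the KOT lines lie below the WT lines without overlap for Cd163 and Timd4.

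In rAAV8-treated Lipa-/- mice of 12-weeks, 2 members were called higher than in WT mice (Adgre1 and Cd5l) and 1 lower (Cd163), where 13.6% and 12% of all genes were called. The median of the 9 members was 1.07, beside 0.06 over all genes, and 6 members did not overlap between the groups, as was the case for 52.5% of all genes. Clec4f lay at 306, 188 and 286 CPM in treated mice 10, 11 and 12, above all WT and all Lipa-/- livers. Vsig4 lay at 29.3, 25.4 and 35.2 CPM, also above all WT livers in CPM but not in TPM (11.5 to 15.8 against 8.55 to 12.5). Neither gene was called (log2 fold changes 1.71 ± 1.03 and 1.10 ± 0.76, edgeR adjusted p = 0.194 and 0.262), but both passed in a fit of these 2 groups alone (1.64 and 1.02, adjusted p = 0.0145 and 0.0226). Timd4 at 3.50, 1.79 and 3.22 CPM overlapped with WT mice (-0.30 ± 0.73, edgeR adjusted p = 0.769). In TPM, which is not corrected with TMM factors, all treated livers (0.601 to 0.872) lay below all WT livers (1.14 to 2.01). The log2 ratio of Timd4 to the general macrophage genes was also below WT in all treated mice (-1.23), but overlapped against Csf1r alone (0.11).

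The 3 called members included Cd163, at 0, 0.109 and 1.23 CPM in mice 10, 11 and 12, or 0, 2 and 16 reads. These values were all below those of WT mice and overlapped with those of Lipa-/- mice. It was 11.6-fold lower than in WT mice (log2 fold change -3.54 ± 0.89, edgeR adjusted p = 0.00889), and without treated mouse 12 the value was -6.22. Adgre1 lay at 67.8, 31.7 and 20.6 CPM, above all WT livers and 5.20-fold higher (2.38 ± 0.47, edgeR adjusted p = 0.00371), with 1.69 without mouse 10. Cd5l lay at 163, 122 and 159 CPM, 3.26-fold higher (1.70 ± 0.54, edgeR adjusted p = 0.0227). That call was lost without WT mouse 1 (1.69, adjusted p = 0.0624), WT mouse 3 (1.43, 0.101), treated mouse 10 (1.55, 0.0803) or treated mouse 12 (1.57, 0.0512), and with total counts (1.31, 0.0614) or limma on TPM (1.11, 0.10 and 1.08, 0.121). The summed monocyte genes, at 28.0 to 63.9 CPM, were above those of WT mice in these livers, with none at 0, and 5 of the 10 were called higher. So were 6 of the 7 genes of lipid-associated macrophages, with a sum of 394 to 869 CPM against 123 to 196 CPM in WT mice, and 6 of the 10 general macrophage genes. Their part in the levels of the members was not tested.

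At 34-weeks no member was called between rAAV8-treated Lipa-/- and WT mice by edgeR, by DESeq2 or by limma on TPM, and 0 of the 9 had an unadjusted p under 0.05. Only 0.22% of all genes were called here, and 8.89% did not overlap between the groups, as against 0 of the 9 members. Clec4f lay at 80.1, 178 and 58.3 CPM in treated mice 11, 12 and 9, Timd4 at 3.55, 7.08 and 2.48 CPM, Marco at 4.70, 47.7 and 7.24 CPM, and Adgre1 at 10.6, 17.7 and 9.51 CPM. Cd163 lay at 3.99, 9.77 and 1.75 CPM, with 2 of the 3 treated livers below the WT range and a log2 fold change of -0.80 ± 0.71 (edgeR adjusted p = 0.965), which ran from -1.65 without treated mouse 12 to -0.38 without treated mouse 9. The log2 fold changes of all 9 ran from -0.80 to 0.34. With SEs of 0.45 to 1.16, differences of the size of 1 log2 unit were not detectable for most members. Of the 7 genes of lipid-associated macrophages 3 were still called higher in these livers, Gpnmb (7.01), Trem2 (2.92) and Fabp5 (2.46), with a sum of 236 to 424 CPM against 101 to 160 CPM in WT mice, whereas 0 genes of recruited monocytes or general macrophages were called by edgeR (5 and 1 at an unadjusted p under 0.05).

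Treated mouse 12 of 34-weeks had the highest level of all 9 members in its group, from 1.76-fold above the mean of the others for Adgre1 to 8.00-fold for Marco. It also had 226 CPM of S100a8 and 46.3 CPM of Mpo, genes of neutrophils and their precursors, with 546 CPM over the 5 neutrophil genes against 2.62 and 4.15 CPM in the other treated mice. The rise was not particular to the members. In this mouse the general macrophage genes had a geometric mean of 28.3 CPM, against 14.1 and 16.9 CPM in treated mice 11 and 9. The monocyte genes summed to 121 CPM in it, against 13.6 and 19.5 CPM in mice 11 and 9. WT mouse 2 of 34-weeks, the WT liver with 23 reads of the vector transcript, had the highest Marco, Timd4, Cd163, Vsig4 and Adgre1 of its group.

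Compared with untreated Lipa-/- mice, treatment was followed at 12-weeks by higher Timd4 (10.0-fold, log2 fold change 3.32 ± 0.87, edgeR adjusted p = 0.00431), Clec4f (9.32-fold, 3.22 ± 1.09, edgeR adjusted p = 0.02) and Folr2 (4.44-fold, 2.15 ± 0.48, edgeR adjusted p = 0.00145) and by lower Marco (-3.98 ± 1.36, edgeR adjusted p = 0.0212). Of all genes 16.2% were called higher and 25.3% lower. The values of treated mice were 23.6, 11.4 and 26.4 CPM for Folr2 and 2.62, 3.75 and 0.613 CPM for Marco in mice 10, 11 and 12. For Marco the groups overlapped, since untreated Lipa-/- mouse 9 had 1.29 CPM. With total counts the Clec4f call was lost (2.32, adjusted p = 0.0618), and the Marco call was lost without treated mouse 10 (-4.08, adjusted p = 0.0592), treated mouse 12 (-3.57, 0.0711) or Lipa-/- mouse 8 (-3.34, 0.0618) and became -4.57 without treated mouse 11. In limma on log2 (TPM + 1) the calls of Timd4 (0.61, adjusted p = 0.0772) and Folr2 (0.86, 0.0721) were lost. Adgre1, Cd5l and Cd163 did not pass in the edgeR fit of this comparison (edgeR adjusted p = 0.963, 0.99 and 0.256).

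At 34-weeks Cd163 (15.4-fold, 3.94 ± 0.85, edgeR adjusted p = 0.00138), Timd4 (10.3-fold, 3.36 ± 0.81, edgeR adjusted p = 0.00317) and Folr2 (3.36-fold, 1.75 ± 0.48, edgeR adjusted p = 0.00716) were higher in treated than in untreated Lipa-/- mice and Adgre1 was lower (-1.73 ± 0.46, edgeR adjusted p = 0.00567), where 12.8% and 18.6% of all genes were called. Clec4f, 6.15-fold higher, missed the threshold (2.62 ± 1.06, edgeR adjusted p = 0.0588) and passed without Lipa-/- mouse 4 (3.58, 0.0442) and without mice 9 and 6 (2.04, 0.00648). Without a filter Clec4f passed as well (2.63, adjusted p = 0.0311). The Folr2 call was lost without treated mouse 12 (0.96, adjusted p = 0.0906) and in limma on TPM (1.03, 0.0662 and 0.94, 0.0653). That mouse lowered Cd163 to 3.05 when left out, and without Lipa-/- mouse 4 Cd163 was 5.04 and Timd4 4.63. The Lipa-/- mice and the WT mice each stand in 2 of these comparisons, which are therefore not independent.

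Over time, 0 members were called in WT mice (0.323% of all genes, and 1 member, Marco, at an unadjusted p under 0.05) and 0 in Lipa-/- mice (0.495% of all genes, 0 members unadjusted) by edgeR, DESeq2 or limma. In treated mice, where 32% of all genes were called, Cd163 rose from 12- to 34-weeks by 3.53 ± 0.89 on the log2 scale (11.6-fold, edgeR adjusted p = 0.00502) and Adgre1 fell by 1.66 ± 0.46 (3.17-fold, edgeR adjusted p = 0.00816). The Cd163 value was 6.17 without treated mouse 12 of 12-weeks and 2.71 without treated mouse 12 of 34-weeks. The Adgre1 call was lost without treated mouse 10 (-1.02, adjusted p = 0.0814) with total counts (-0.98, adjusted p = 0.0719) and in limma on TPM (-0.47, 0.392 and -0.41, 0.413). An interaction term tested if the distance to WT livers changed with time. For treated mice 1 member passed, Adgre1 (-2.61 ± 0.64, edgeR adjusted p = 0.0246), where 18.4% of all genes did, and Cd163 did not (2.75 ± 1.13, edgeR adjusted p = 0.0899). The Adgre1 term was lost without WT mouse 1 (-2.60, adjusted p = 0.0509) or 3 (-2.38, 0.0754) or treated mouse 10 (-1.93, 0.0654) of 12-weeks, and without WT mouse 1 (-2.51, 0.0633) or treated mouse 9 (-2.44, 0.0724) of 34-weeks, and in a fit of only these 4 groups (-2.50, 0.0584). That of Cd163 passed without treated mouse 12 of 12-weeks (5.42, adjusted p = 0.019). For untreated Lipa-/- mice 0 members passed by edgeR, DESeq2 or limma and 0 at an unadjusted p under 0.05, with 0.0619% of all genes called.

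Per length, Id3 and Clec4f were the most abundant members in WT livers, at 102 ± 56.0 and 53.5 ± 19.7 TPM (SD, n = 3) at 12-weeks, followed by Cd5l (20.8 ± 6.33), Folr2 (10.4 ± 3.24) and Vsig4 (10.0 ± 2.16 TPM). Adgre1 (2.39 ± 0.70), Timd4 (1.48 ± 0.46), Cd163 (1.31 ± 0.10) and Marco (0.911 ± 0.31 TPM) came last. Id3 and Clec4f, Folr2 and Vsig4, and Timd4 and Cd163 were neighbours that differed by less than their spread. In Lipa-/- livers of 12-weeks the order was Id3 (141 ± 29.8), Cd5l (94.7 ± 60.8), Clec4f (32.5 ± 27.5), Marco (25.9 ± 22.3) and Adgre1 (16.1 ± 7.4), with Timd4 at 0.159 ± 0.14 and Cd163 at 0.0409 ± 0.03 TPM. On the TPM scale, which is not corrected with TMM factors, Adgre1 was lower in treated than in untreated Lipa-/- mice of 12-weeks (-1.09 on log2 (TPM + 1), limma adjusted p = 0.0269), where the edgeR fit gave -0.03.

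Genes with the most similar pattern over the 18 mice were sought among the 12598 that averaged 1 CPM or more, by the root mean square (RMS) difference of centred log2 CPM. For Clec4f these were Timd4 (1.22), Vsig4 (1.35) and Csrp3 (1.36), and for Vsig4 they were Fcna (0.67), Ccl24 (0.70) and Tmem26 (0.77). For Timd4 they were Hhip (0.85), Plekhb1 (0.92) and the chemokine gene Cxcl13 (0.94), and for Cd163 Mapk15 (1.00), Cyp2b10 (1.10) and Cyp26a1 (1.12). Adgre1 was closest to Fgl2 (0.34), Cd40 (0.38) and Il15 (0.38), Cd5l to Batf3 (0.43), Fabp7 (0.44) and Klrk1 (0.47), and Marco to Pou2f2 (1.31), Epb41l3 (1.49) and Slc13a5 (1.54). Folr2 was closest to Tmem243 (0.44), Acot8 (0.45) and Mrm2 (0.45), and Id3 to its paralog Id2 (0.40), Blvrb (0.40) and Tmem37 (0.41). Clec4f was the only member whose nearest gene was another member.

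Of 10 other genes of Kupffer cells, 4 were called higher and 3 lower in untreated Lipa-/- livers at 12-weeks, and 1 higher and 4 lower at 34-weeks, with a median of 0.40 and -0.39. Cxcl13, a B cell chemokine (-3.04 and -4.02), Hpgd, a prostaglandin dehydrogenase (-1.88 and -3.14), and complement C6 (-1.99 and -1.32) fell at both, and Nr1h3, which encodes LXR alpha, fell at 34-weeks (-1.5, edgeR adjusted p = 0.000687). Hmox1, the haem oxygenase, rose at both (3.36 and 2.53), while Spic, a regulator of red pulp macrophages (3.01), the fatty acid binding protein gene Fabp7 (1.56) and Il18bp (1.84) rose at 12-weeks. Clec1b (1.16 and 0.22) and the iron exporter gene Slc40a1 (-0.36 and -0.97) were not called. Against WT, 4 were called higher in treated mice of 12-weeks (Spic, Fabp7, Nr1h3 and Hmox1) and 1 at 34-weeks (C6, 1.45). Hpgd, C6 and Hmox1 are also made by cells other than macrophages.

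**Figure D5:**
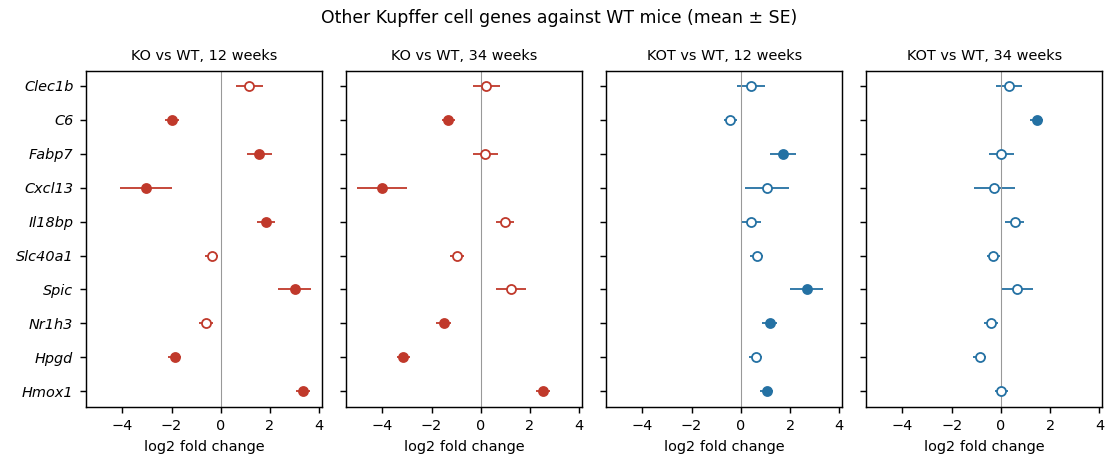
Log2 fold change (± SE) of 10 other Kupffer cell genes against WT mice of the same time point, in Lipa-/- (KO) and rAAV8-treated Lipa-/- (KOT) mice, with filled circles for called genes. Cxcl13 and Hpgd lie left of 0 and Hmox1 right of 0 in KO mice at both time points, and C6 is the only filled circle in KOT mice of 34 weeks.

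Genes listed for the niche that sustains Kupffer cells were mostly higher or not called in Lipa-/- mice. Of all tested genes 20.2% and 20.5% were called higher and 9.06% and 15.7% lower at 12- and 34-weeks. Which cells made these transcripts was not tested, and Csf1r is also among the general macrophage genes above. Of 8 ligands 3 were called higher in Lipa-/- mice at 12-weeks and 4 at 34-weeks, none lower: Csf1, the growth factor of macrophages (2.64 and 2.31), Il34, which binds the same receptor (1.48 and 1.53), Tgfb1 (3.34 and 3.06) and, at 34-weeks, the Notch ligand Jag1 (1.47). Of 8 receptors 4 were called higher at each, namely Csf1r, Acvrl1 (1.92 and 1.54), Tgfbr1 (1.45 and 1.45) and Tgfbr2 (1.80 and 2.17). Of 10 targets or factors 4 were called higher at 12-weeks, namely Id1 (2.18), Hes1 (1.49), Spic and Zeb2 (2.25), and Zeb2 was also called higher at 34-weeks (2.13), where Id2 (-1.31) and Nr1h3 were called lower. In treated mice of 34-weeks 0 of these genes were called by edgeR.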

How the data were processed

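Liver RNA of 18 mice in 6 groups of 3 was analysed, grouped by the labels, which give 3 or 8 months, the genotype and the treatment. The study's methods place these at 12- and 34-weeks post-injection. Paired reads of polyA RNA were quantified by the authors with Salmon against the Ensembl cDNA set of GRCm39 and summarised per gene with tximport, which gave the deposited estimated counts, without scaling between mice. The deposited TPM values come from the same step, per mouse and without correction between mice, as do the deposited mean transcript lengths. The submitters' processing notes name R 4.3.0 and DESeq2 1.40.1. The deposited comparison table holds the authors' log2 fold changes and p-values from DESeq2 and was not used.

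Counts, of which 19.4% were not whole, were rounded, and genes with more than 100 reads over all mice were kept (14533 of 35441). edgeR 4.0.16 in R 4.3.3 gave TMM factors and a quasi-likelihood fit of 6 group means with 12 residual degrees of freedom, for 11 comparisons, 6 of them within a time point. P-values were adjusted with the Benjamini-Hochberg method over all tested genes, and a gene was called at an adjusted p under 0.05 and a log2 fold change over 1 in size. A floor of 3 reads corresponded to 0.0946 to 0.291 CPM per mouse, for counting error only. Log ratios to general macrophage genes used CPM + 0.1. The procedure was tested on counts simulated from the fitted spread of each gene, with changes in far fewer genes than were called here. Mice with outlying values were not simulated, so this test does not cover them. The labels name an ERCC spike-in, which was not used here.

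The members and all gene lists were chosen with earlier results of these data known. Genes named are the 9 members, Lipa and hLIPA, all other Kupffer cell genes, niche ligands, receptors, targets or factors that were called in Lipa-/- mice, Csf1r, Cd68 and Spi1, up to 3 called genes with the largest change in Lipa-/- mice from the lists for monocytes, lipid-associated macrophages, hepatocytes, sinusoidal endothelial cells, stellate cells, cholangiocytes, neutrophils, T cells and B cells, and the 3 most similar genes per member. Ly6c2 and further values given for single mice were named after their values were seen.

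Alternatives were DESeq2 1.42.0 and edgeR with length offsets, total counts, upper quartile scaling, no filter, filterByExpr, fits limited to the mice of each comparison, an adjusted p alone, limma 3.58.1 on log2 (TPM + 0.1) and log2 (TPM + 1), each mouse left out in turn, the mouse number as a replicate block, and 3 other references for the ratios. Leaving out a pair of Lipa-/- mice was added after seeing the data. Promoter windows and positions were read from GRCm39 with GENCODE vM39. Histology, lipid and respiration data of the study were not analysed here, and a few items of the lists and 1 promoter window are not reported here.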

Additional observations from a re-analysis of the deposited data

Results flagged for a closer look

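Adgre1 differed from WT mice by 2.38 on the log2 scale in rAAV8-treated Lipa-/- mice of 12-weeks and by -0.23 in those of 34-weeks, and the interaction term of -2.61 passed the test (edgeR adjusted p = 0.0246). All 3 treated livers of 12-weeks lay above all WT livers of that time, and at 34-weeks the groups overlapped. The interaction kept its direction in all 21 alternatives, with adjusted p from 0.00368 to 0.142, and passed in 13 of them. It missed the threshold without WT mouse 1 of 34-weeks (-2.51), treated mouse 9 of 34-weeks (-2.44), WT mouse 1 of 12-weeks (-2.60), WT mouse 3 of 12-weeks (-2.38) or treated mouse 10 of 12-weeks (-1.93), in a fit of only these groups (-2.50) and on both TPM scales (-1.5 and -1.23). Study code and time cannot be told apart here.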

How the results depend on the processing

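Of the combinations of a printed log2 fold change and an alternative, 571 kept direction and call, 49 lost the call, 14 gained one and 24 turned their sign, the last only in members that were not called. Timd4 and Cd163 in Lipa-/- mice kept their calls at both time points in all 16 alternatives, as did Adgre1 at 12-weeks and Folr2 at 34-weeks. With total counts the differences of Vsig4 between Lipa-/- and WT mice turned to 0.16 and 0.20 at 12- and 34-weeks and that of Id3 at 12-weeks to 0.46, which upper quartile scaling gave as 0.014 and limma on TPM as 0.63 and 0.63. A fit of only the groups compared turned Adgre1 between treated and untreated Lipa-/- mice of 12-weeks to 0.013. Without Lipa-/- mice 9 and 6 Vsig4 became 0.19 and 0.038, Id3 0.042 and that value of Adgre1 0.11. Against Csf1r alone as reference, Timd4 in treated mice of 12-weeks turned to 0.11, and 13 of 18 differences of Lipa-/- mice moved by more than their spread.

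The number of members called in treated mice between the time points (2) was 4 in DESeq2 and in a fit of only these groups, and 1 in limma on log2 (TPM + 1) and with the mouse number as a replicate block. For the change of their difference from WT (1) it was 0 in a fit of only these groups and on both TPM scales, and for treated against WT mice of 12-weeks (3) it was 5 in a fit of only these groups. Leaving out 1 mouse at a time gave 3 to 6 members called in Lipa-/- against WT mice at 12-weeks, 1 to 4 in treated mice over time and 0 to 4 for the interaction. The same gave -0.80 to 0.19 for Vsig4 at 12-weeks, -1.26 to 0.038 for Vsig4 at 34-weeks, -0.44 to 0.39 for Id3 at 12-weeks and -0.066 to 0.64 for Cd5l at 34-weeks in Lipa-/- mice. In treated mice it gave -0.55 to 0.11 for Timd4 at 12-weeks and -0.29 to 0.62 for Vsig4 at 34-weeks against WT, and -0.67 to 0.25 for Adgre1 at 12-weeks against Lipa-/- mice. The cause of these shifts was not tested.

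Mouse numbers recur between time points but belong to different animals, since livers were taken at sacrifice. Deviations of same-numbered mice correlated at 0.08, -0.24 and 0.46 in WT and -0.08 and -0.25 in treated mice. These correlations do not bear on whether the animals differ, and Lipa-/- mice were not included. With the replicate block 0 members were called in WT mice over time, and 11 genes in place of 47. In treated mice Adgre1 gave -0.86 under the block (adjusted p = 0.176). Depth limits Timd4 and Cd163 in Lipa-/- livers, which rest on 28 reads or fewer per mouse.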

Other observations

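Genes listed for other cell types of the liver are given as counts, beside 20.2% of all genes called higher and 9.06% lower in untreated Lipa-/- mice at 12-weeks and 20.5% and 15.7% at 34-weeks, and no list was tested against other genes. Of 5 stellate cell genes, 3 were called higher and 1 lower at 12-weeks and 3 higher and 2 lower at 34-weeks, with Pdgfrb (3.06 on the log2 scale at 34-weeks) and Hand2 (2.30 at 12-weeks) higher and Lrat, which stores retinol as ester, lower (-2.63 at 34-weeks). Of 6 sinusoidal endothelial genes, 1 was called higher and 2 lower at 12-weeks and 2 each at 34-weeks, with Clec4g (-2.70 at 34-weeks) and Kdr (-2.09 at 12-weeks) lower and Lyve1 (2.07 at 34-weeks) higher. All 4 cholangiocyte genes were called higher at 34-weeks, among them Epcam (2.69), Sox9 (2.5) and Krt19 (2.17), and 2 at 12-weeks. In treated mice of 34-weeks 0 genes of these lists were called by edgeR.

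Of 5 hepatocyte genes 1 was called lower in Lipa-/- mice at 12-weeks and 3 at 34-weeks, namely Ttr (-1.97), Apob (-1.30) and Alb (-1.10). Of 5 neutrophil genes 5 were called higher at 12-weeks and 4 at 34-weeks, led by Mpo (12.20 at 12-weeks), Ly6g (9.04) and S100a8 (8.47). The 5 genes summed to only 1.47 to 2.97 CPM in WT mice of 12-weeks, so these fold changes depend on the prior count. Monocyte genes were led by Chil3 (10.19), Itgax (7.77) and S100a4 (7.50) at 12-weeks. Of 4 T cell genes 3 were called higher at both time points, among them Cd8a (3.59), Cd3e (1.76 at 12-weeks) and Cd4 (1.89 at 34-weeks). In treated mice of 34-weeks 1 T cell gene was called higher than in WT mice, and the median log2 fold change of the 4 was 1.89. Of 4 B cell genes 1 was called higher at 12-weeks, Cd79b (1.5), and the median was 0.013 at 12-weeks and -0.31 at 34-weeks.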
